A study of Rattus norvegicus with 13 samples.

Results

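Interferon-stimulated genes are genes whose transcription is switched on when a cell senses interferon. A panel of 35 such genes was followed in fat tissue from 13 daughters of Sprague Dawley rats. The panel was chosen by name, with earlier results of these arrays known: Rsad2 had been selected on its small p in the diet comparison, so the diet values given here are a description and support nothing on their own. Of the 35 symbols, 32 were found in the platform annotation, each with 1 probe, among 14506 genes measured in all, so that no choice between probes was needed. Ddx58, Parp14 and Xaf1 were not found under those names and were skipped.

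The daughters fell into groups by the diet of their father. The fathers of 7 control daughters ate standard chow with 9% fat, and the fathers of 6 high-fat daughters ate pellets with 43% fat. Mating to chow-fed females took place when the fathers were 15 weeks old. The female offspring ate chow from weaning at 3 weeks and were 14 weeks old at tissue collection. Levels are log2 values from 1 array per daughter, and a difference of 1 is a factor of 2 on the linear scale. Depot, father and litter of each animal are not in the labels, and p-values therefore measure only the spread between these samples. Daughters are named by the number in their title.

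The tissue label fitted the adipocyte markers, whose mean over 11 genes lay between 12.27 and 12.60 on every array. The arrays of control 662, control 664, high-fat 619 and high-fat 629 also carried strong skeletal muscle signal, with a mean over 11 muscle genes of 9.23 to 11.99, against 7.05 to 7.22 on the other 9 arrays. Ucp1, the uncoupling protein of brown fat, ranged from 6.11 to 11.02. Values on the array of control 658 were the least spread out, with an SD over all probes of 1.785, against 1.857 to 1.961 on the others. The diet difference of the panel is given below with and without the muscle-bearing arrays and control 658. Correlations with group means taken out are given with and without control 658, but not without the muscle-bearing arrays. No setting was chosen by Ucp1. In a piece of tissue, fewer cells of a type and less RNA per cell cannot be told apart.

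Interferons bind receptors at the cell surface and signal through kinases such as Jak1 and Tyk2. Type I interferons activate a complex with Stat2 and Irf9 that binds the interferon-stimulated response element of promoters, whereas interferon gamma acts mainly on a gamma-activated site. The induced genes include sensors of foreign RNA, effectors that block viral replication, the ubiquitin-like modifier Isg15 with its conjugation machinery, and the immunoproteasome and peptide transporter that feed MHC class I. In the absence of infection many are transcribed at a low tonic level, in adipocytes as in the immune and vascular cells of fat.

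The response element core could be read in the promoters of many of these genes, and sequences are shown here because the panel moved together across animals. RefSeq promoter windows of build GRCr8, 250 bases before to 50 after the gene start, were found for 25 of the 32 genes. The letters GAAANNGAAA, on either strand, occurred in 14 of these 25 windows and in 3.77% of the 27457 promoter windows of the genome. The gamma-activated site letters TTCNNNGAA, which read the same on both strands, occurred in 5 of 25 windows and in 8.68% of all windows. No window was found for Isg15, Mx2, Ifit2, Dhx58, Usp18, Zbp1 and Adar. The stretches below are 5′ to 3′ on the strand of the gene, end before the gene start, and carry the matched letters in capitals, which overlap for 2 matches in Oas1a and in Bst2. Capitals mark response element letters only, except in Irf1, and the stretch of Bst2 also holds the gamma-activated site letters in part in lower case. Rsad2 lies on the minus strand at chr6:48788228-48788297, with the match starting 147 bases before the gene start. Eif2ak2 lies on the plus strand at chr6:21941108-21941153, Irf7 on the minus strand at chr1:205800053-205800122, and Isg20 on the plus strand at chr1:142239937-142240006. Oas1a lies on the plus strand at chr12:41330395-41330465, Ifih1 on the minus strand at chr3:67683988-67684057, and Tap1 on the minus strand at chr20:4668625-4668694. Bst2 lies on the minus strand at chr16:18255053-18255128. Irf1, on the plus strand at chr10:38417763-38417831, is shown for its gamma-activated site letters.
Rsad2: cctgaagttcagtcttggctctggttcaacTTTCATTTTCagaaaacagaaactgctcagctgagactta
Eif2ak2: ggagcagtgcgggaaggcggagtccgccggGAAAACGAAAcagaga
Irf7: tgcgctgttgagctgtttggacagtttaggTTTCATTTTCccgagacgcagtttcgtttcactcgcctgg
Isg20: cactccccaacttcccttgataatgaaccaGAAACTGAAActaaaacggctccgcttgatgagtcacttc
Oas1a: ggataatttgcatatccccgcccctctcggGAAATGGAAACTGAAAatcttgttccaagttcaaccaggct
Ifih1: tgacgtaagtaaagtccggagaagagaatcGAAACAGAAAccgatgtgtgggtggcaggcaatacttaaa
Tap1: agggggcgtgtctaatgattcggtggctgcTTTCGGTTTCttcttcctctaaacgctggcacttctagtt
Bst2: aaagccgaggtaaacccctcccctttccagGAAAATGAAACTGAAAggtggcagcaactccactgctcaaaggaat
Irf1: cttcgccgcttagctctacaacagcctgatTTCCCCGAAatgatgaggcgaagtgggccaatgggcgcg

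Across the 13 animals, 27 of the 32 genes tended to be high in the same daughters and low in the same others, also within a diet group. With the mean of each diet group taken out, the median Pearson correlation over the 496 pairs of genes was 0.63, against a median of 0.03 over all pairs of the 14506 genes. It was 0.64 with the group means kept. A correlation above 0.5 was found in 341 of the 496 pairs, or 68.8%, and in 18% of all gene pairs. Negative correlations were found in 29 pairs. These correlations describe the 13 arrays, are not independent of each other, and carry no p. The genes also varied more than most, with a median SD over the 13 arrays of 0.23 against 0.15 over all genes.

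**Figure D1:**
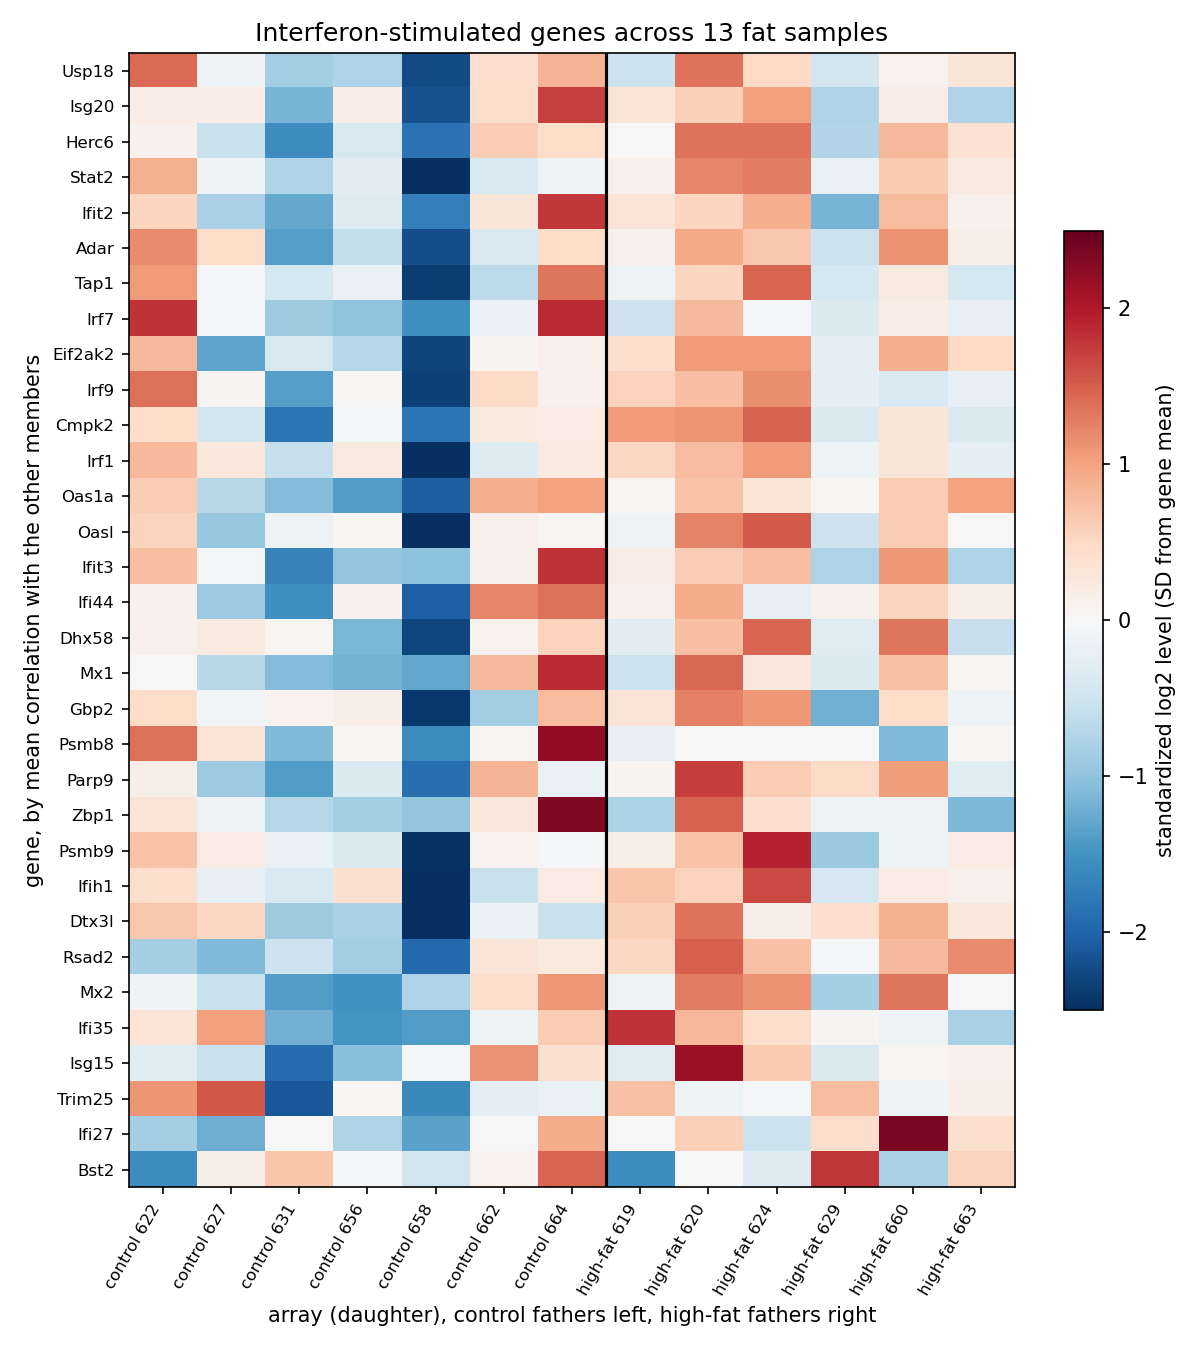
Log2 level of each of 32 interferon-stimulated genes (rows, ordered by mean correlation with the others) on each of 13 arrays (columns, control fathers left of the line), standardized per gene over all arrays. Control 658 is the lowest array for 25 genes, while control 664 and high-fat 624 are the highest for 9 genes each and Bst2, in the bottom row, follows a pattern of its own.

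The gene with the highest mean correlation with the other members was Usp18, the protease that takes Isg15 off its targets and restrains the type I receptor (mean r = 0.71, group means taken out). Isg20, an exonuclease that degrades RNA, followed at 0.69, and Herc6, the ligase that attaches Isg15 in rodents, at 0.68. Stat2, Ifit2 and Adar each had 0.67, Tap1 0.66 and Irf7 0.65. These 8 genes include effectors, a modifier, transcription factors and the peptide transporter. The 5 genes outside the group of 27 were Bst2, Ifi27, Trim25, Isg15 and Ifi35, with mean correlations of -0.07, 0.25, 0.32, 0.36 and 0.43. Bst2, also called tetherin, holds budding virus at the cell surface, and its promoter carries the overlapping response element letters printed above, as does that of Oas1a, which had a mean correlation of 0.63. Among genes with a promoter window, the median of the mean correlations was 0.60 for the 14 with the GAAANNGAAA letters and 0.62 for the 11 without them, so the letters did not separate genes by how closely they followed the others. The call of 27 genes rests on a mean correlation above 0.5, with Rsad2 and Mx2, each at 0.55, the lowest inside and Ifi35, at 0.43, the highest outside. It depends in part on control 658. With the mean of the 27, each gene left out of it, Isg15 had r = 0.48, but 0.77 without control 658. Rsad2 and Dtx3l had 0.71 and 0.72, but 0.48 and 0.42 without it, while the others of the 27 stayed above 0.5. In that setting Bst2, Trim25, Ifi35 and Ifi27 had -0.32, 0.18, 0.46 and 0.13. With the array SD taken out of every gene, Ifi27 had 0.66.

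The lowest and highest levels often fell on the same few arrays. Control 658 was the lowest of all 13 arrays for 25 of the 32 genes, and control 631 was among the lowest 3 for 21. High-fat 620 was among the highest 3 for 25 genes, high-fat 624 for 18, control 664 for 14, high-fat 660 for 12 and control 622 for 11. Relative to the control mean, the median deviation of the 32 genes was -0.39 in control 658 and -0.20 in control 631, and 0.21 in control 664, 0.27 in high-fat 620 and 0.30 in high-fat 624. High arrays were thus found in both diet groups, and the lowest arrays were both controls.

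The low arrays were also those with a small spread of values. On control 658 the genes above the middle of the expression range, which include 25 of the 32 panel members, deviated by a median of -0.22, and all genes by -0.08. The mean of the 27 co-varying genes, standardized and with group means taken out, correlated with the SD of the arrays at r = 0.68 and rho = 0.56. Dropping the 2 arrays whose SD lay farthest from the mean of their diet group, control 658 and high-fat 660, gave r = 0.58. Without control 658 alone r was 0.34. No p is given because the genes in the mean were picked for their correlation. When the array SD was taken out of every gene, the median correlation between panel members was 0.53, against 0.03 over all gene pairs, and without control 658 it was 0.52 against 0.02. With both changes together it was 0.53 against 0.03. Without the 3 arrays of smallest SD it was 0.49 against 0.02.

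**Figure D2:**
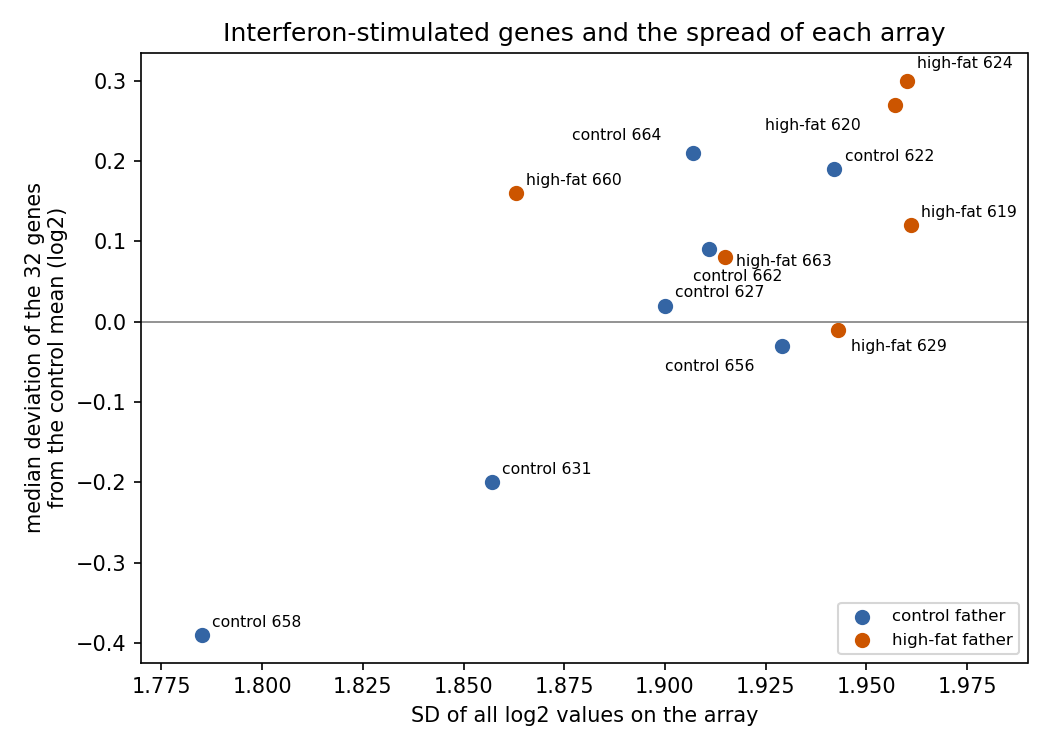
Median deviation of the 32 genes from the control mean (vertical axis, log2) against the SD of all log2 values on the array (horizontal axis), 1 point per daughter, coloured by the diet of the father. Control 658 lies lowest on both axes at 1.785 and -0.39, while high-fat 660 combines a small SD of 1.863 with a deviation of 0.16.

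The widest swings were those of Mx1, a dynamin-like GTPase that traps incoming virus, whose levels spanned 2.01 log2 units over the 13 arrays, from 7.37 in control 658 to 9.38 in control 664. Usp18 spanned 1.78, from 7.51 in control 658 to 9.29 in control 622. Irf7, the factor that amplifies type I interferon output, spanned 1.18, from 9.25 in control 658 to 10.44 in control 664, with control 622 at 10.42 and high-fat 620 at 10.07. These 3 genes therefore shared control 658 as their lowest array and were high in some animals of each diet group. Of the 32 genes, 7 spanned more than 1 log2 unit, and the narrowest span was 0.34, that of Ifi35.

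Pairs of related or neighbouring genes were tied to different degrees. The relatives Mx1 and Mx2 correlated at 0.89, and still at 0.91 both with the array SD taken out and without control 658. Ifit2 and Ifit3, members of a family that binds viral RNA, correlated at 0.88, and at 0.87 and 0.89 in those settings. Irf7 and Usp18 correlated at 0.90, with 0.88 and 0.89. On all arrays the closest pairs were Irf1 with Ifih1 and Stat2 with Irf1, both at 0.95, but without control 658 they had 0.85 and 0.88, below Mx1 with Mx2, and with the array SD taken out 0.85 and 0.90. Mx1 correlated with Irf1 at 0.41 and with Psmb9 at 0.40, and at 0.23 with each without control 658. Psmb8 and Psmb9, which code for immunoproteasome subunits, correlated at 0.54, but at 0.05 with the array SD taken out and 0.23 without control 658, whereas Psmb9 and its neighbour Tap1 kept 0.69 and 0.67 of an original 0.84. Parp9 and Dtx3l, whose products form a complex, correlated at 0.66, with 0.48 in either setting. Rsad2 and its neighbour Cmpk2 correlated at 0.48, with 0.31 and 0.26.

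Other genes of the interferon system followed the same pattern. The mean of the 27 co-varying genes had a correlation above 0.5 with 28.9% of all 14506 genes, group means taken out, with 10.1% of them when the array SD was also taken out, and with 9.86% without control 658. The corresponding counts of panel members, each left out of the mean it was compared with, were 28, 28 and 26 of 32. The counts of members are largely built in, since the 27 genes were picked for correlating with each other, and support nothing. From a wider list of interferon-induced genes, 30 of 39 measured genes passed 0.5, with a median of 0.72, and of 0.62 with the array SD taken out. Among them Uba7, the activating enzyme of Isg15, reached 0.89, Oas1b, a further oligoadenylate synthetase, 0.88, and Cxcl10, a chemokine that draws T cells, 0.81. Ifit1 had 0.14, and its levels spanned 5.99 to 9.78 in controls and 6.18 to 9.79 in high-fat daughters. These 4 genes are named after their values were seen. Ifnar2 was not found in the annotation. Rig1, which the RefSeq table gives as the present name of Ddx58, the RIG-I sensor, reached 0.74, and 0.49 with the array SD taken out.

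**Figure D3:**
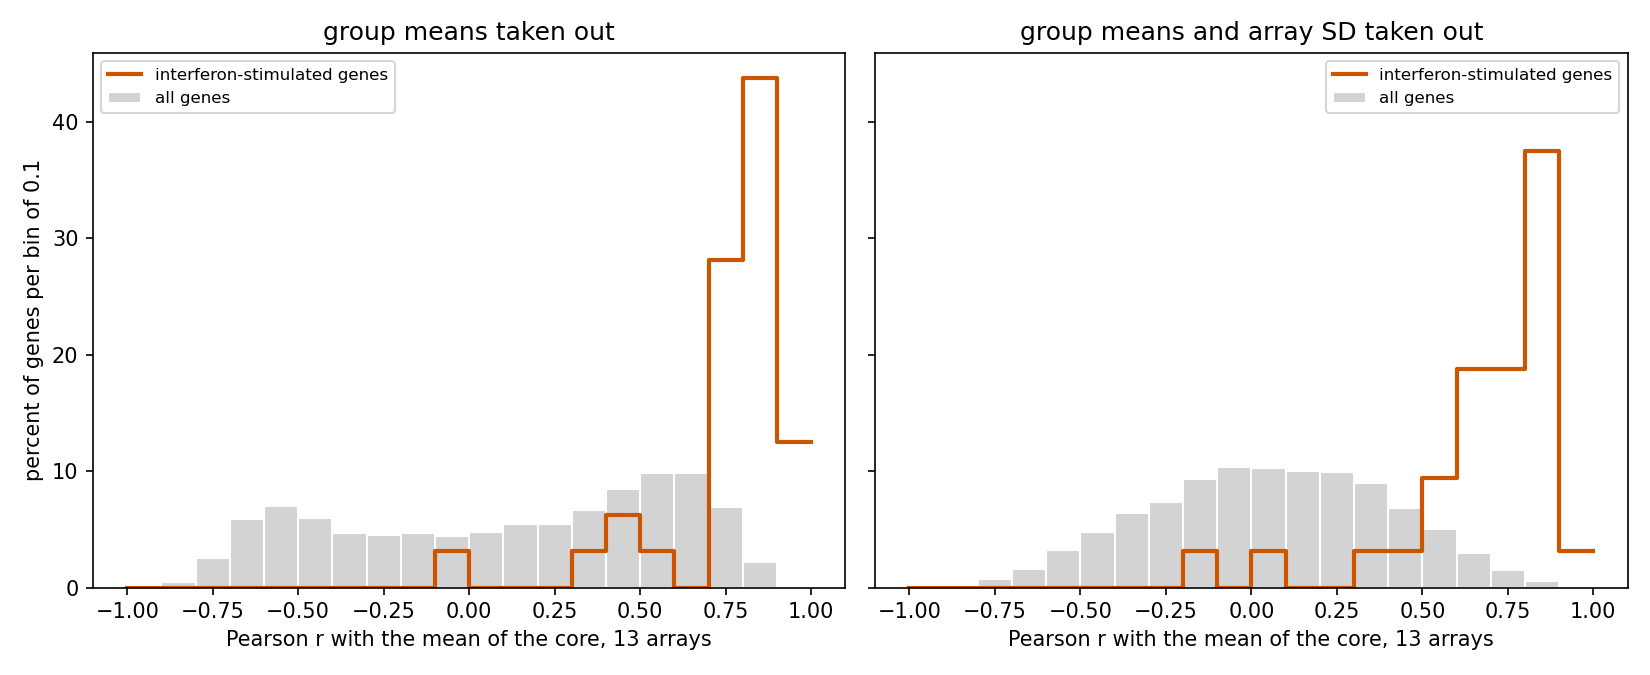
Percent of genes (vertical axis) in bins of Pearson r with the mean of the 27 co-varying genes over 13 arrays (horizontal axis), for all 14506 genes (bars) and the 32 interferon-stimulated genes (line, each left out of its own mean), with group means taken out at left and array SD also taken out at right. The share of all genes above 0.5 drops from 28.9% to 10.1% between the panels, while 28 of the 32 genes lie above it in each, Ifi35 being above it only at left and Ifi27 only at right. The 27 were picked for such correlations.

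Genes upstream of the response gave lower medians. Of 6 measured receptor and kinase genes 5 passed 0.5, with a median of 0.69 that was 0.48 with the array SD taken out. The receptor chain Ifnar1 reached 0.70, and 0.31 in that setting. Of 14 genes of nucleic acid sensing 11 passed, with medians of 0.62 and 0.27. Irf8, a factor of dendritic and B cells, had 0.89 and 0.90, and Irf5, a factor of myeloid cells, had 0.83 and 0.65, both named after their values were seen. The median over 15 antigen presentation genes was 0.59, and 0.42 with the array SD taken out. None of the 5 measured interferon genes passed. Ifnb1 had a correlation of -0.05 and Ifng of -0.13, with levels of 6.31 to 6.60 and 5.57 to 6.08 over all arrays, and signal over background could not be judged from the deposited values.

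Outside the panel, the 10 genes most like the mean of the co-varying genes had correlations of 0.91 to 0.93 over 13 arrays. They were Fmnl1, Sh2b1, Slc44a2, Dgka, Trex1, Dock8, Sp110, Slamf9, Angpt2 and Sec14l1. Trex1, an exonuclease that clears cytosolic DNA, and Sp110, a nuclear body protein induced by interferon, stood on the lists of interferon genes, and the other 8 did not. Fmnl1, a formin of blood cells, and Dock8, an exchange factor of lymphocytes, had correlations of 0.93 and 0.91, and of 0.91 and 0.85 with the array SD taken out. None of the 10 passed the diet test in limma, with differences from -0.08 to 0.11 and adjusted p of 0.53 to 0.89. A promoter window was found for 9 of them, and the GAAANNGAAA letters in 1, that of Sp110.

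Markers of immune cells moved with the panel to different degrees. The mean over 16 T and NK cell genes correlated with the mean of the co-varying genes at r = 0.63 and rho = 0.64, 0.64 without the 2 farthest arrays and 0.58 without control 658. Its range was 7.22 to 7.87 in controls, highest in control 664, and 7.18 to 7.49 in high-fat daughters. Of the 16 genes 9 passed 0.5 and the median was 0.51. With the array SD taken out the median was 0.71, against 0.62 for the wider list of interferon-induced genes. Cd3e, part of the receptor complex on T cells, had a correlation of 0.73, and of 0.84 with the array SD taken out. The cytotoxic granule enzyme Gzmb had -0.77, and -0.51 in that setting, and the NK cell receptor Ncr1 had -0.41 and 0.47, so the list did not move as 1 block. For 6 dendritic cell genes the list mean gave r = 0.75, for 6 B and plasma cell genes 0.63, for 7 plasmacytoid dendritic cell genes 0.32, for 14 macrophage genes 0.21 and for 11 neutrophil and mast cell genes 0.12. Without control 658 these 5 values were 0.66, 0.58, 0.16, -0.20 and -0.41, so the last 2 changed sign. In the same order, the medians over single genes with the array SD taken out were 0.63, 0.43, 0.33, -0.11 and 0.02. The list means ranged from 7.57 to 7.90 in controls and 7.54 to 7.82 in high-fat daughters for dendritic cells, and from 9.83 to 10.21 and 9.83 to 10.18 for macrophages. For 9 endothelial genes r was 0.68, but 0.24 without control 658. For skeletal muscle it was 0.17. Their part in the pattern was not tested.

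In the comparison by diet, the high-fat mean exceeded the control mean for 28 of the 32 genes and lay below it for 4, Irf7, Bst2, Zbp1 and Psmb8, and none passed the test. The median difference, high-fat minus control, was 0.16, against 0.03 over all genes and 0.09 over genes above the middle of the expression range. Over all genes 58% had a higher mean in the high-fat group. That share was counted on all 13 arrays only. The limma fit over all 14506 genes gave 0 genes (0%) at an adjusted p under 0.05, and 1155 genes, or 7.96%, at an unadjusted p under 0.05, with 5.42% higher and 2.54% lower. By the latter measure 7 of the 32 genes counted, Rsad2, Dtx3l, Parp9, Eif2ak2, Stat2, Ifi27 and Herc6, all of them higher. Adjusted p of the 32 genes in limma ran from 0.53 to 0.99. None of the 32 separated the groups completely, which was seen, with the high-fat group on top, in 0.0551% of all genes.

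The count and the median rested on a few arrays. Without control 658 the median difference was 0.07, against 0.01 over all genes, with 27 genes higher. In that setting 4 genes had an unadjusted p under 0.05, against 4.70% of all genes. With the array SD as a covariate the median was 0.03, against 0.0 over all genes. There 20 genes were higher and 3 genes counted, against 2.81% of all genes. Without the 3 arrays of smallest SD, controls 658 and 631 and high-fat 660, the median was 0.04 and 1 gene counted, against 9.62% of all genes. Leaving out high-fat 620 left 2 genes, against 4.09% of all genes, and leaving out control 656 left 4, against 9.80%. Leaving out high-fat 660 also left 4 genes, or 12.5%, which is below the 17.3% of all genes in that setting. The highest count on leaving out 1 array was 10, without control 664, against 7.05% of all genes. These settings other than the single arrays were chosen after seeing the data.

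Rsad2, or viperin, an enzyme that makes a chain-terminating nucleotide, stood furthest apart. Its log2 level ran from 7.30 through a median of 7.62 to 7.95 in the 7 controls, and from 7.85 through 8.08 to 8.29 in the 6 high-fat daughters. All high-fat daughters but 629 lay above every control, and 629 lay below the muscle-bearing controls 662 and 664, so the groups overlapped by these arrays only. The means were 7.67 ± 0.22 (SD, n = 7) and 8.09 ± 0.15 (SD, n = 6), a difference of 0.42 ± 0.10 (SE), and the gene ranked 4 of all genes by p. The difference was 0.36 without control 658 and 0.35 with the array SD as a covariate. It was 0.43 within daughters 619 to 631 and 0.45 within daughters 656 to 664. Cmpk2, its neighbour, a nucleotide kinase of mitochondria, ran from 8.05 through 8.40 to 8.50 in controls and from 8.34 through 8.54 to 8.70 in the high-fat group, a difference of 0.20 ± 0.09 (SE), which was 0.07 with the array SD as a covariate.

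**Figure D4:**
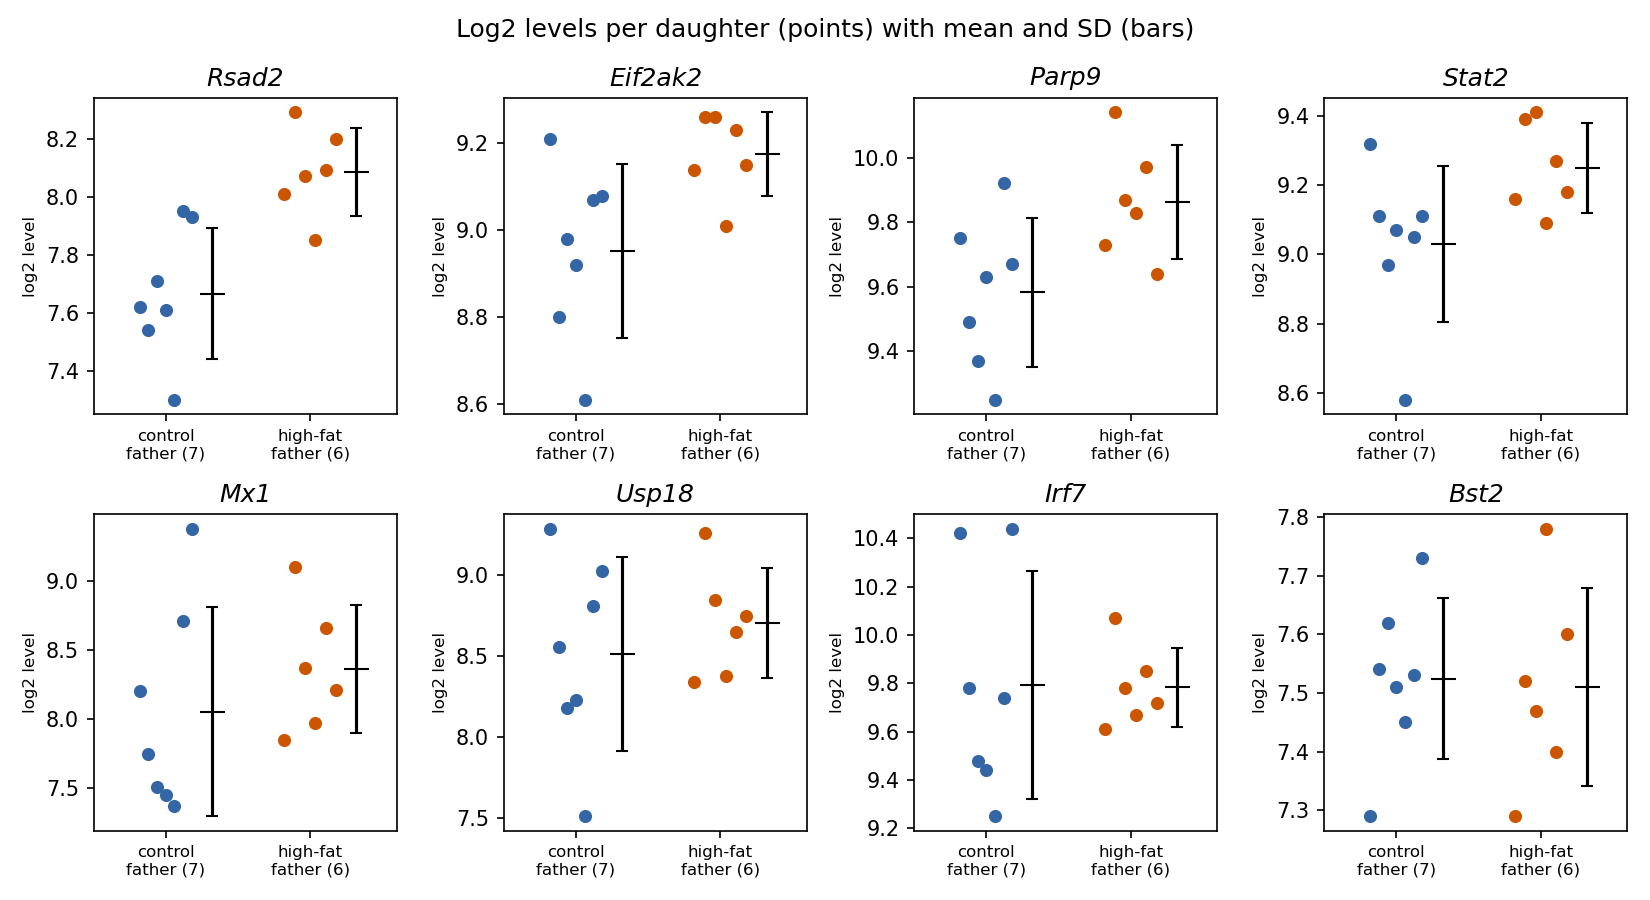
Log2 level (vertical axis) of 8 interferon-stimulated genes in each daughter (points), by diet of the father, with the mean and SD of each group. In the Rsad2 panel 5 of 6 high-fat daughters lie above the highest control at 7.95, while in the Irf7 and Bst2 panels the groups overlap throughout and differ by -0.01.

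The transcription factors differed less. Stat2 ran from 8.58 through 9.07 to 9.32 in controls and from 9.09 through 9.22 to 9.41 in high-fat daughters. All 6 high-fat daughters lay above the control median and 2 above the highest control. Its difference was 0.22 ± 0.10 (SE, adjusted p of 0.53 in limma), and 0.09 with the array SD as a covariate. Irf9, its DNA-binding partner, ran from 8.95 through 9.48 to 9.77 and from 9.38 through 9.51 to 9.72. The groups overlapped throughout, with a difference of 0.11 ± 0.11 (SE) that was -0.07 with the array SD as a covariate. Irf1, which serves both interferon pathways, ran from 8.15 through 8.89 to 9.03 and from 8.78 through 8.94 to 9.09. Control 658 alone lay far below the rest for Irf1, and the difference of 0.17 ± 0.12 (SE) was 0.06 without it. Irf7 ran from 9.25 through 9.74 to 10.44 and from 9.61 through 9.75 to 10.07, a difference of -0.01 ± 0.18 (SE). Its controls lay on both sides of the high-fat daughters, with an SD of 0.47 against 0.16.

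Of the 3 measured cytosolic sensors, Ifih1, or MDA5, a sensor of long double-stranded RNA, ran from 8.39 through 8.95 to 9.09 in controls and from 8.90 through 9.08 to 9.36 in high-fat daughters. Dhx58, or LGP2, a relative that lacks signalling domains, ran from 6.78 through 7.32 to 7.43 and from 7.17 through 7.36 to 7.63. Their differences were 0.19 ± 0.11 (SE) and 0.17 ± 0.11 (SE), and 0.04 and 0.09 with the array SD as a covariate. Zbp1, a sensor of Z-form nucleic acids, ran from 7.26 through 7.55 to 8.37 and from 7.21 through 7.56 to 8.09, a difference of -0.02 ± 0.18 (SE). Control 664 was its highest array, followed by high-fat 620 at 8.09, and the next highest control had 7.7.

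Among the antiviral effectors, 11 of 12 had a higher mean in high-fat daughters, against 58% of all genes, with a median difference of 0.20. Eif2ak2, the kinase PKR that halts translation, ran from 8.61 through 8.98 to 9.21 in controls and from 9.01 through 9.19 to 9.26 in high-fat daughters. All 6 high-fat daughters lay above the control median, with a difference of 0.22 ± 0.09 (SE) that was 0.17 without control 658. Mx1 ran from 7.37 through 7.75 to 9.38 and from 7.85 through 8.29 to 9.10. Mx2 ran from 7.72 through 8.07 to 8.67 and from 7.97 through 8.48 to 8.76. Both spread widely within each group, and the differences were 0.30 ± 0.32 (SE) and 0.32 ± 0.17 (SE). Oas1a, which makes the second messenger of RNase L, ran from 8.13 through 8.55 to 9.07 and from 8.77 through 8.91 to 9.07. Its control SD was 0.38 and its high-fat SD 0.12, and the difference was 0.26 ± 0.15 (SE). Ifit2 ran from 8.67 through 9.06 to 9.64 and from 8.82 through 9.27 to 9.40, a difference of 0.13 ± 0.14 (SE). Adar, the editing enzyme that marks self RNA, ran from 8.66 through 8.99 to 9.27 and from 8.96 through 9.13 to 9.26, a difference of 0.14 ± 0.09 (SE). For Isg20 the difference was 0.02 ± 0.07 (SE) and for Bst2 -0.01 ± 0.08 (SE). Oasl and Ifit3 differed by 0.20 and 0.08.

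The modifiers linked to Isg15 and to ADP-ribose, 6 measured genes, all had a higher mean in high-fat daughters, against 58% of all genes. Their median difference was 0.23. Parp9 ran from 9.25 through 9.63 to 9.92 in controls and from 9.64 through 9.85 to 10.14 in the high-fat group, a difference of 0.28 ± 0.11 (SE). Dtx3l, the ubiquitin ligase that pairs with Parp9, ran from 8.11 through 8.57 to 8.86 and from 8.74 through 8.82 to 9.02, a difference of 0.27 ± 0.10 (SE). For both genes all 6 high-fat daughters lay above the control median and 2 above the highest control. Herc6 ran from 8.57 through 9.02 to 9.34 and from 8.92 through 9.33 to 9.57, a difference of 0.31 ± 0.14 (SE). The adjusted p of these 3 genes in limma was 0.53 for each, and with the array SD as a covariate the differences were 0.17, 0.15 and 0.17. Isg15 itself ran from 7.0 through 7.24 to 7.45 and from 7.23 through 7.29 to 7.60, a difference of 0.11 ± 0.08 (SE). Usp18 ran from 7.51 through 8.56 to 9.29 and from 8.34 through 8.70 to 9.26, a difference of 0.19 ± 0.25 (SE) that was -0.11 with the array SD as a covariate. Trim25, a ligase that activates RIG-I, differed by 0.08 ± 0.10 (SE).

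The genes of antigen processing, which interferon gamma induces strongly, and the GTPase Gbp2 had a median difference of 0.11, against 0.16 over the 32 genes. Tap1, a chain of the peptide transporter, ran from 7.79 through 8.29 to 8.63 in controls and from 8.23 through 8.34 to 8.66 in the high-fat group, a difference of 0.08 ± 0.12 (SE) that was 0.00 without control 658. Psmb8 had the lowest difference of the 32 genes, -0.07 ± 0.09 (SE), and Psmb9 and the GTPase Gbp2 differed by 0.15 ± 0.12 (SE) and 0.14 ± 0.12 (SE). Of the remaining induced proteins, Ifi27, a small membrane protein, ran from 9.55 through 9.69 to 10.11 and from 9.75 through 9.99 to 10.46. It differed by 0.25 ± 0.11 (SE), and by 0.29 with the array SD as a covariate, whereas most of the other differences were smaller in that setting. Ifi44 and Ifi35 differed by 0.10 and 0.07.

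**Figure D5:**
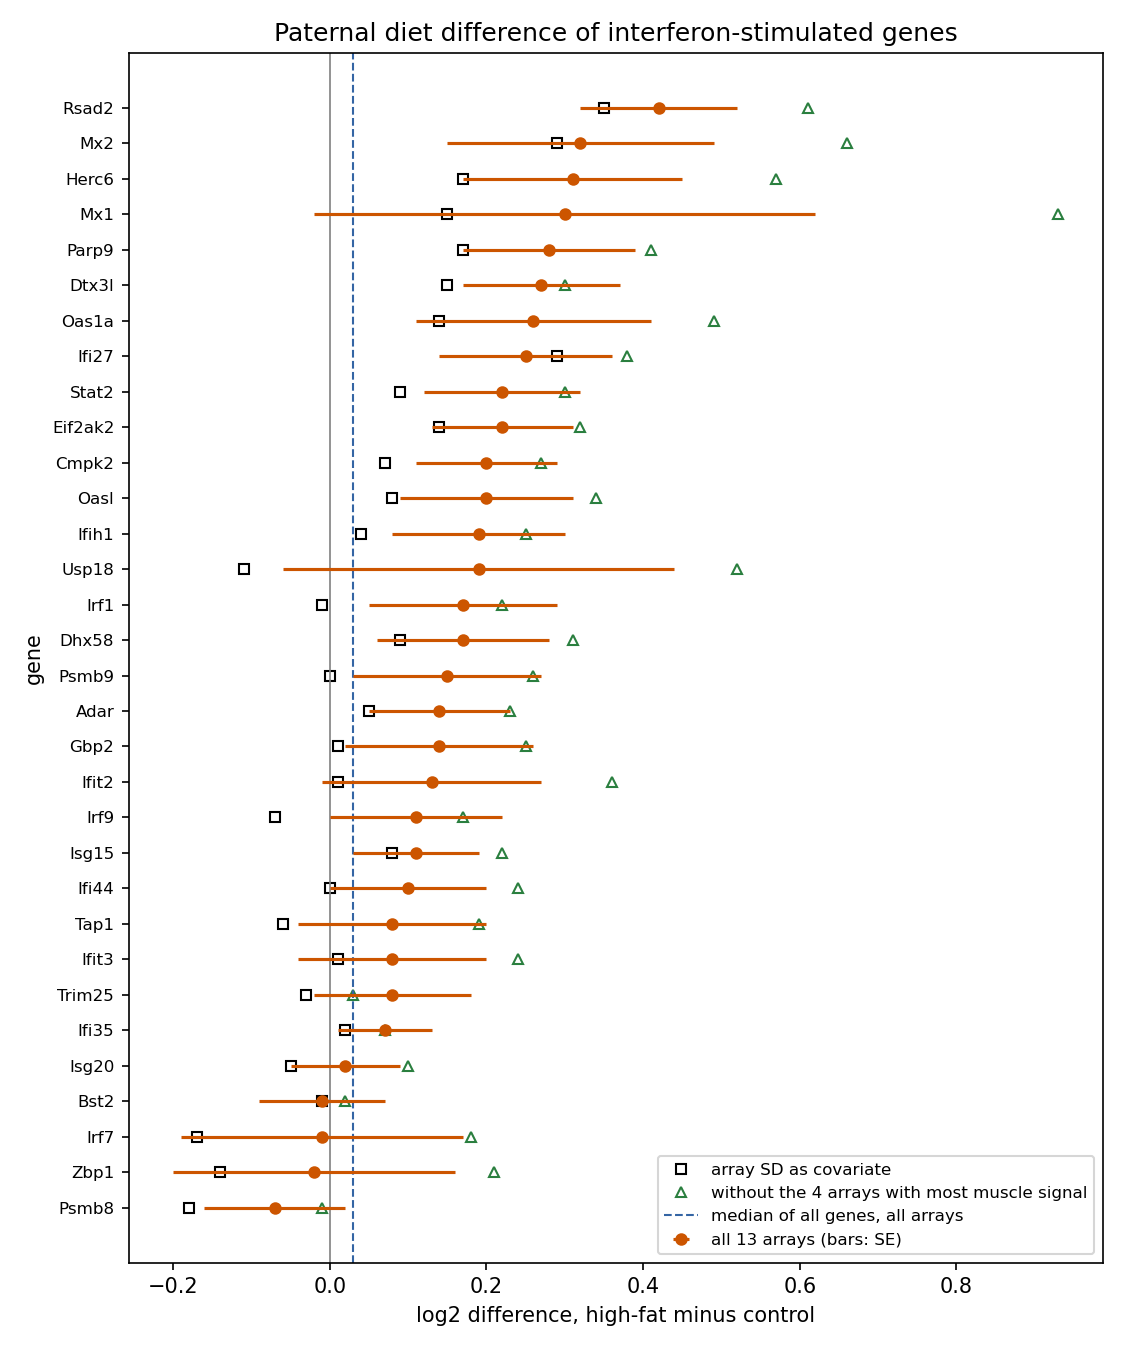
Log2 difference, high-fat minus control (horizontal axis), of the 32 genes: filled circles with SE for all 13 arrays, squares with the array SD as a covariate, triangles without the 4 arrays with most muscle signal. The dashed line is the median of all genes, 0.03. The median of the 32 genes is 0.16, 0.03 and 0.26 in the 3 settings.

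The difference was wider among the 9 arrays with little muscle signal, 5 control and 4 high-fat. There 31 of 32 genes had a higher mean in high-fat daughters, and the median difference was 0.26 against 0.03 over all genes. The share of all genes with a higher mean was not counted on these arrays. An unadjusted p under 0.05 was found for 15 genes, against 3.79% of all genes. In limma 0 of the 14506 genes passed on these arrays, with 550 at an unadjusted p under 0.05 and a smallest adjusted p of 0.74. For Rsad2, Mx1, Mx2, Herc6 and Isg15, 5 genes in all, the lowest of the 4 high-fat daughters was above the highest of the 5 controls, a separation seen in 0.896% of all genes. The difference was 0.93 for Mx1, 0.66 for Mx2, 0.61 for Rsad2, 0.57 for Herc6 and 0.22 for Isg15. These 9 arrays include the low arrays of controls 658 and 631. Without control 658 as well, the median was 0.19 and 11 genes counted, against 2.77% of all genes, and with the array SD as a covariate on the 9 arrays it was 0.16 with 10 genes, against 3.85%. For Mx1 the arrays left out were the 2 highest controls, 664 at 9.38 and 662 at 8.71, and the 2 lowest high-fat daughters, 619 at 7.85 and 629 at 7.97. For Rsad2, Mx2, Herc6 and Isg15 too, controls 662 and 664 were the 2 highest controls, and 619 and 629 the 2 lowest high-fat daughters. Because these arrays sat at opposite ends of their groups for all 5 genes, removing them widens the difference of each by itself. The separation of these 5 genes on the 9 arrays therefore supports nothing. The arrays did not sit so for every gene of the panel. Dtx3l, which is not among the 5, was 8.66 and 8.57 in controls 662 and 664, and 8.86 in control 622. On all arrays the difference of Mx1 was 0.33 with the muscle level as a covariate and 0.15 with the array SD, it ranged from 0.16 to 0.52 on leaving out 1 array, and it was 0.00 without the 3 arrays of smallest SD. The part of muscle or of array spread in these differences was not tested further.

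The numbers of the daughters fall into the ranges 619 to 631 and 656 to 664, whose meaning is not given. In daughters 619 to 631, 3 control and 4 high-fat, 30 genes had a higher mean in the high-fat group and the median difference was 0.13. In daughters 656 to 664, 4 control and 2 high-fat, 27 genes had a higher mean and the median was 0.18, but 0.02 without control 658. The median over all genes was 0.02 in each range. The share of all genes with a higher mean was not counted within the ranges. In limma, 2 of the 32 genes had an unadjusted p under 0.05 in daughters 619 to 631, beside 1990 of all 14506 genes, which is a larger share. In daughters 656 to 664 there were 0 of the 32, beside 135 of all genes. In an interaction of diet and range fitted with limma, 0 of the 32 genes had an unadjusted p under 0.05, against 3.47% of all genes.

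Interferon genes outside the panel were compared by diet as well. In limma no gene of the following lists passed. Of 39 further interferon-induced genes 30 had a higher mean in high-fat daughters, against 58% of all genes, with a median difference of 0.07. Of the 39 genes 2 had an unadjusted p under 0.05, a share of 5.13% that is below the 7.96% of all genes. These were Tnfsf10, the death ligand TRAIL, with 0.32 ± 0.13 (SE), and Oasl2, with 0.41 ± 0.18 (SE). Oasl2 ran from 7.91 through 8.83 to 9.03 in controls and from 8.79 through 9.02 to 9.43 in high-fat daughters. All 6 receptor and kinase genes had a higher mean, with a median of 0.08, among them Jak1 with 0.10 ± 0.06 (SE), while Ifnar1 differed by 0.00 ± 0.08 (SE). The medians were 0.03 for 14 sensing genes, 0.05 for 11 genes that restrain the pathway and 0.03 for 15 antigen presentation genes. Of 5 interferon genes 4 had a lower mean, the lowest p being that of Ifna5 with -0.17 ± 0.07 (SE), and Ifnb1 and Ifng differed by 0.00 and 0.03. Marker lists of other cells also differed by diet, with no gene passing in limma. Over all genes 58% had a higher mean and 7.96% an unadjusted p under 0.05. For T and NK cells the high-fat mean was below the control mean in all 16 genes, with a median difference of -0.17. Of them 1 gene, or 6.25%, had an unadjusted p under 0.05, a share below that of all genes. All 11 adipocyte genes had a higher mean, with a median of 0.10. The 3 such genes, or 27.3%, were the lipid droplet and lipid handling genes Fabp4 (0.20), Plin1 (0.18) and Lipe (0.16). Of 11 neutrophil and mast cell genes 9 were lower, with a median of -0.13 and 4 such genes, or 36.4%. All 5 mesothelial genes were lower, with a median of -0.42 and no such gene. The part of these cells in the diet differences of the panel was not tested.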

How the data were processed

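The deposited table holds log2 levels of 29214 probes on 13 Affymetrix biotin-labelled arrays, made by the authors with RMA and Partek per the submitters' processing notes (versions and filters: not given in the sources used here). RMA usually includes quantile normalization, yet the SD still differed between arrays, which can move bright genes together. Detection per probe was not assessed. Array medians were 7.66 to 7.72, and pairwise array correlations 0.946 to 0.995. The number of arrays limits precision.

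Probes with 1 gene symbol in the platform annotation (15310, with 323 holding several and 13581 unnamed) gave 14506 genes, keeping the brightest probe. Diet groups were compared over all genes with limma 3.58.1 (lmFit and eBayes, R 4.3.3) with no covariate, p-values being two-sided and adjusted by Benjamini-Hochberg, and the script was tested on simulated data. Correlations are Pearson's over arrays. The members and all lists were chosen with earlier results of these data known. Named members are those with the smallest p, the highest or lowest mean correlation or the largest SD, and Rsad2, Irf7, Irf9, Stat2, Isg15, Mx1, Irf1, Tap1 and Adar in any case; Oas1a, Ifih1, Dhx58, Zbp1, Cmpk2, Oasl, Ifit3, Psmb8, Psmb9, Gbp2, Ifi35 and Ifi44 were added after their values were seen. Non-members named are the 10 most alike and, per list, the 2 of smallest p or fixed names; others are marked. Alternatives were renormalization, centring, a level filter, mean of probes, robust variance, array weights, number range and leaving out arrays, and, added after seeing the data, array SD and muscle level.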

Additional observations from a re-analysis of the deposited data

Results flagged for a closer look

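Each of the 32 genes was checked in both diet groups for a daughter far from the rest by Dixon's criterion, 64 checks in all, of which 5 met it. Chance flags about 1 in 20, here 3.2. Control 658 was the far sample for 3 genes, with Irf1 at 8.15 against 8.70 in the next lowest control, Ifih1 at 8.39 against 8.87, and Psmb9 at 8.21 against 8.72. Control 664 was the far sample for Zbp1, at 8.37 against 7.7 in the next highest control. High-fat 660 was the far sample for Psmb8, at 8.98 against 9.13 in the next lowest high-fat daughter. Control 658 also had the smallest SD of all arrays, 1.785.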

How the results depend on the processing

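No paired analysis was possible because the diet groups share no replicate numbers. Of all genes, 1155 had an unadjusted p under 0.05. The count was 661 among genes above the middle level, 2179 with array weights, 611 with the number range as covariate, 1990 in daughters 619 to 631, 135 in daughters 656 to 664, 407 with the array SD as covariate, 550 without the 4 muscle arrays, 559 with the array SD added, 402 without control 658 as well, and 508 to 2508 on leaving out 1 array. After adjustment it was 0. Panel genes counted were 7 of 32, beside 1155 of all 14506 genes. After quantile normalization 3 counted, beside 845 of all genes. In daughters 619 to 631 there were 2, a smaller share than the 1990 of all genes. In daughters 656 to 664 there were 0, beside 135. With the array SD there were 3, beside 407, and without the 3 arrays of smallest SD 1, beside 1395. Without the muscle arrays there were 15, beside 550, and without control 658 as well 11, beside 402. On leaving out 1 array the panel count was 2 to 10, and after adjustment it was 0. The median difference was 0.03 to 0.26 in these settings, 0.02 in daughters 656 to 664 without control 658, and 0.07 to 0.21 on leaving out 1 array.

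The median correlation, group means kept, was 0.64, but 0.50 after quantile normalization, 0.53 with arrays centred on their medians, 0.75 in daughters 656 to 664, 0.49 with the array SD (also without the muscle arrays), 0.43 without the 3 arrays of smallest SD, and 0.50 to 0.67 on leaving out 1 array, lowest without control 658.

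Signs were followed across settings for 20 of the 32 genes. The differences of 9 of these changed sign, Usp18 (0.19) and Irf1 (0.17) being the largest of them. Other genes were not followed in this way, and Zbp1 among them had -0.02 on all arrays but 0.21 without the muscle arrays. Isg20 had -0.07 after quantile normalization, -0.01 with centring and with array weights, -0.04 in daughters 656 to 664, and -0.05 with the array SD and without the 3 arrays of smallest SD. Trim25 had -0.01 after quantile normalization, -0.03 with the array SD, without the 3 arrays of smallest SD and without the muscle arrays and control 658, and -0.07 without the muscle arrays with the array SD. With the array SD, Usp18 had -0.11, Tap1 -0.06, Irf9 -0.07 and Irf1 -0.01, and Irf9 had -0.01 without the muscle arrays as well. Without the 3 arrays of smallest SD, Usp18 had -0.07, Ifit2 -0.05 and Tap1 -0.03. Bst2 had 0.03 in daughters 619 to 631, 0.01 without the 3 arrays of smallest SD, 0.02 without the muscle arrays, with or without the array SD, and 0.01 without control 658 as well. Irf7 had 0.07 in daughters 656 to 664, 0.18 without the muscle arrays, 0.02 with the array SD added and 0.08 without control 658 as well. On leaving out 1 array, Irf7 ranged from -0.10 to 0.10, Bst2 from -0.07 to 0.03 and Isg20 from -0.02 to 0.06. The cause of these changes was not tested.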
